A study of Mus musculus with 20 samples.

Results

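The 10 genes described here carry the electrical signal of the muscle fibre into calcium release and return that calcium to its store: Ryr1, Cacna1s, Atp2a1, Atp2a2, Casq1, Casq2, Sln, Pln, Pvalb and Srl. They were chosen by name, and each matched 1 of the 22660 rows of the gene count table. RNA was sequenced from plantaris muscle of 20 male C57BL/6 J mice aged 2 years, in 4 groups of 5 different animals. Mechanical overload (MOV) was set by excising part of the soleus and gastrocnemius of both hind limbs, which leaves the plantaris to carry their load, and muscle was taken on day 14, while sham mice had the skin opened with those muscles left in place. Sham and MOV mice were each given vehicle or D + Q, where D + Q is a gavage of the kinase inhibitor dasatinib (5 mg/kg) with the flavonoid quercetin (50 mg/kg), a pair used as senolytics to kill senescent cells. This made 4 groups, called vehicle sham, vehicle MOV, D + Q sham and D + Q MOV here. Gavage fell on days 7 and 10 per the treatment labels, although the series' design text gives day 14 as the second day in sham mice. All 20 mice were therefore old, operated and gavaged, and no young or unoperated mouse is in the series.

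When a muscle fibre is excited, the voltage sensor of the transverse tubule (the dihydropyridine receptor) opens the ryanodine receptor of the sarcoplasmic reticulum by direct contact, and the calcium released starts contraction. Calcium is held in the reticulum by calsequestrin, buffered in the cytosol by parvalbumin and pumped back by the SERCA pumps, which small membrane peptides such as sarcolipin and phospholamban slow down. Fast fibres use SERCA1, calsequestrin 1 and much parvalbumin. SERCA2 is the pump of slow fibres and the heart, and calsequestrin 2 is found in both. The mouse plantaris is a fast muscle.

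Between 17887532 and 26234518 counts were assigned to genes per mouse, and the 10 genes held 3.95% to 4.51% of them in vehicle sham and 2.93% to 3.29% in vehicle MOV, 4.26% to 4.95% in D + Q sham and 2.99% to 3.52% in D + Q MOV. Levels are CPM, the counts of a gene scaled to a common library size with factors from the trimmed mean of M-values (TMM), and fold changes, standard errors (SE) and Benjamini-Hochberg adjusted p-values come from edgeR's quasi-likelihood test across all genes, with a call at an adjusted p under 0.05. Markers of skeletal muscle fibre were abundant in every mouse, with a summed level of at least 174254 CPM in sham and 99052 CPM in MOV. One library stood apart from its group before any comparison, since all 10 slow fibre markers examined were highest in vehicle sham mouse 3 among the 5 vehicle sham mice, with a summed slow marker level of 990 CPM against 328 to 451 CPM in the others. Fold changes and count ratios that rest on this mouse are given with and without it.

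With vehicle, 3 of the 10 genes were higher in MOV than in sham (Sln, Casq2 and Atp2a2), 6 were lower (Atp2a1, Pvalb, Ryr1, Casq1, Cacna1s and Srl), and Pln was not called. The same 9 genes were called in the same directions in the D + Q mice, which are other animals. MOV changed much of the transcriptome, so these counts stand beside a background of 60.5% of 14601 genes called with vehicle (30.7% higher and 29.8% lower) and 65.3% of 14913 genes called with D + Q (34.4% higher and 30.9% lower). All 10 genes passed the low count filter in every comparison. Their median log2 fold change was -0.51 with vehicle and -0.43 with D + Q, beside -0.015 and 0.023 over all genes tested. With total counts as the only scaling, the median of all genes moved up by 0.377 and 0.365, and the higher share of all calls went from 50.8% to 84.1% with vehicle and from 52.6% to 83.5% with D + Q. Under that scaling Sln, Casq2 and Atp2a2 were still higher and Atp2a1, Pvalb and Ryr1 still lower in both treatments, whereas Casq1 and Srl lost the call in both and Cacna1s with vehicle. These fold changes are therefore relative to the bulk of genes, and in whole muscle fewer fibres of a type and less RNA per fibre cannot be told apart.

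**Figure D1:**
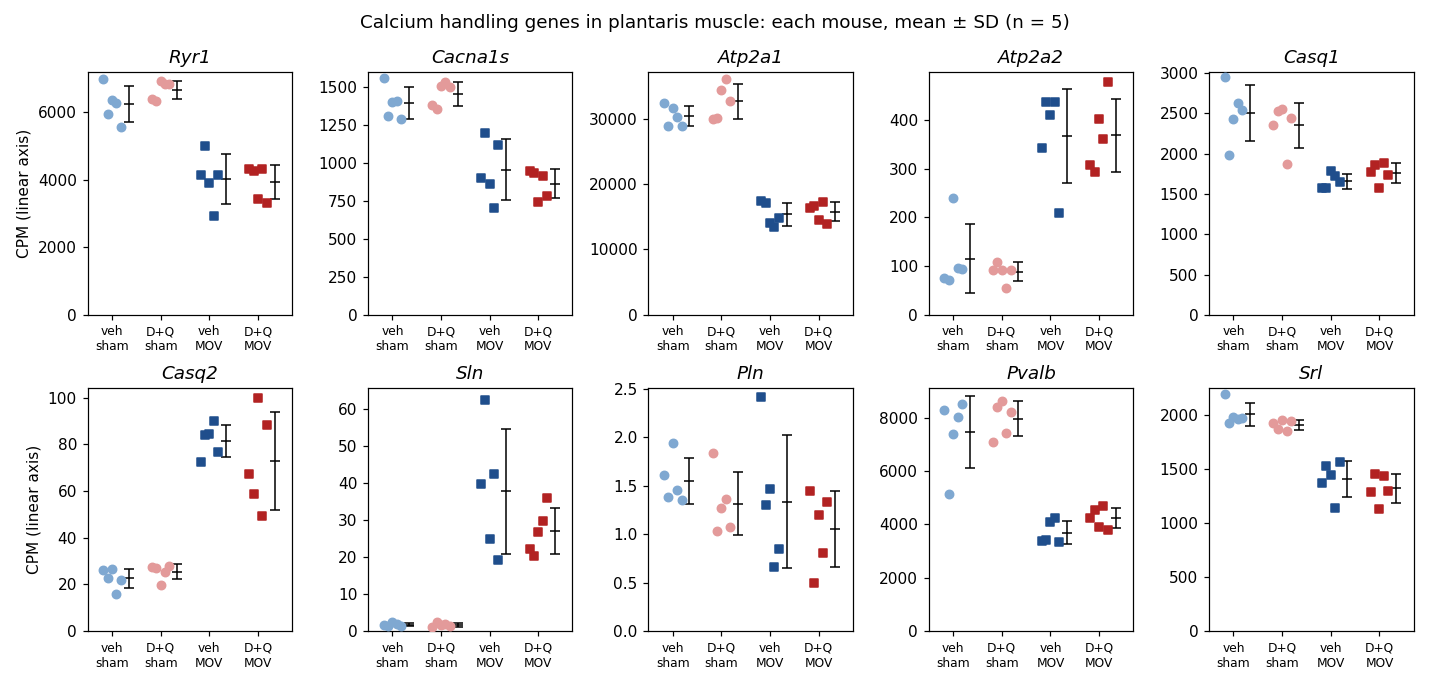
CPM (linear axes from 0) of each of the 10 genes in every mouse, with circles for sham, squares for MOV, and a bar for the mean ± SD of the 5 mice. The MOV mice lie below every sham mouse for Ryr1, Atp2a1, Cacna1s, Pvalb and Srl, and above every sham mouse for Sln and Casq2, while 1 vehicle sham mouse at 239.8 CPM of Atp2a2 lies above 1 vehicle MOV mouse.

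Ryr1 encodes the ryanodine receptor, the calcium release channel of skeletal muscle (chromosome 7, 28702769 to 28824604, minus strand, GRCm39, 106 exons). Its levels in vehicle sham mice 1 to 5 were 7001, 5968, 6382, 6289 and 5556 CPM, against 4133, 4998, 3923, 2944 and 4149 CPM in vehicle MOV. In D + Q sham they were 6389, 6338, 6919, 6847 and 6833 CPM, against 4312, 4253, 3441, 4314 and 3330 CPM in D + Q MOV. Every MOV mouse was thus below every sham mouse given the same treatment, a separation toward lower levels that 22.8% of genes showed with vehicle and 26.9% with D + Q. The log2 fold change of Ryr1 was -0.62 (SE 0.119, adjusted p = 0.000371) with vehicle and -0.71 (SE 0.0847, adjusted p = 8.5e-07) with D + Q.

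Cacna1s encodes the pore-forming subunit of the voltage sensor that opens this channel (chromosome 1, 135980259 to 136047560, plus strand, 44 exons). Its level fell from 1392 ± 105 (SD, n = 5) to 956 ± 199 CPM with vehicle, and from 1454 ± 80.1 to 863 ± 93.9 CPM with D + Q, with no overlap between sham and MOV in either treatment. Its log2 fold change was -0.53 (SE 0.124, adjusted p = 0.00175) with vehicle and -0.71 (SE 0.0768, adjusted p = 3.06e-07) with D + Q. The release channel and its sensor fell by similar amounts, and their count ratio within a mouse, which does not depend on scaling between libraries, stayed in a narrow range. That ratio was 448% ± 10.5 in vehicle sham, 459% ± 7.80 in D + Q sham, 424% ± 35.3 in vehicle MOV and 455% ± 17.2 in D + Q MOV. The lowest value, 371%, was that of vehicle MOV mouse 5. The log2 ratio differed between MOV and sham by -0.081 with vehicle and by -0.012 with D + Q (two-sided exact permutation test over 252 divisions of the mice, adjusted p over 16 tests = 0.296 and 0.804).

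Srl encodes sarcalumenin, a calcium-binding glycoprotein of the sarcoplasmic reticulum that supports the SERCA pump (chromosome 16, 4294124 to 4359680, minus strand). Among the genes called it changed least with vehicle, from 2010 ± 108 to 1413 ± 169 CPM, and it went from 1913 ± 47.1 to 1324 ± 132 CPM with D + Q. Its log2 fold change was -0.50 (SE 0.0909, adjusted p = 0.000242) with vehicle and -0.48 (SE 0.0711, adjusted p = 1.08e-05) with D + Q. The highest MOV mice reached 1566 CPM with vehicle and 1457 CPM with D + Q, below the lowest sham mice at 1930 and 1855 CPM. With total counts as the only scaling the log2 fold change was -0.12 in both (adjusted p = 0.114 and 0.0559).

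Atp2a1 encodes SERCA1, the calcium pump of fast fibres, and was the most abundant of the 10 genes (chromosome 7, 126045013 to 126063423, minus strand). It measured 32404, 28836, 31584, 30223 and 28906 CPM in vehicle sham mice 1 to 5 and 17407, 17036, 14066, 13455 and 14745 CPM in vehicle MOV. In D + Q sham it measured 29938, 30032, 34404, 36013 and 32741 CPM, and in D + Q MOV 16257, 16632, 14529, 17313 and 13921 CPM. The groups were far apart in both treatments, with a 1.96-fold lower level with vehicle (log2 fold change -0.97, SE 0.0957, adjusted p = 6.94e-07) and a 2.01-fold lower level with D + Q (-1.0, SE 0.0855, adjusted p = 1.44e-08).

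Atp2a2 encodes SERCA2, the pump of slow fibres and heart (chromosome 5, 122591575 to 122640903, minus strand). It measured 75.9, 72.1, 239.8, 95.7 and 93.4 CPM in vehicle sham mice 1 to 5, against 342, 436, 410.2, 437 and 209 CPM in vehicle MOV. Vehicle sham mouse 3, in which the slow fibre markers were also highest, lay above vehicle MOV mouse 5, so these groups overlapped. In D + Q sham it measured 92.7, 108, 92.5, 55.6 and 91.4 CPM, and in D + Q MOV 308, 293, 403, 359.9 and 477 CPM, with no overlap. The log2 fold change was 1.68 (SE 0.382, adjusted p = 0.00419) with vehicle and 2.11 (SE 0.197, adjusted p = 7.65e-06) with D + Q. Without vehicle sham mouse 3 the value with vehicle was 2.13 (SE 0.214, adjusted p = 1.35e-05).

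The balance between the pumps differed between MOV and sham in both treatments. Atp2a2 counts were 0.377% ± 0.218 of Atp2a1 counts in vehicle sham and 0.275% ± 0.0762 in D + Q sham, and 2.42% ± 0.736 in vehicle MOV and 2.39% ± 0.699 in D + Q MOV. The lowest MOV mouse, at 1.42%, was above the highest sham mouse, vehicle sham mouse 3, at 0.759%. The log2 ratio rose by 2.77 with vehicle and by 3.13 with D + Q, which are 6.83-fold and 8.73-fold (exact permutation test, p = 0.00794 in each, the smallest that 5 against 5 mice allow, adjusted p over 16 tests = 0.0212). Without vehicle sham mouse 3 the rise with vehicle was 3.06. SERCA1 remained by far the more abundant message, with 45.1 ± 16.1 Atp2a1 counts for each Atp2a2 count in vehicle MOV.

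Sln encodes sarcolipin, a short membrane peptide that binds SERCA and lowers the calcium moved per ATP. It lies on chromosome 9 (53742537 to 53761846, plus strand) and has 2 exons, of which 1 holds the coding sequence of 96 bases (31 codons and a stop). Pln encodes phospholamban, a related inhibitor best known in heart (chromosome 10, 53199622 to 53223512, plus strand), with 159 coding bases (52 codons and a stop). Both coding sequences are shown because the pair act on the same pump and behaved differently here. They were read from GRCm39 at the GENCODE coding positions, Sln at chr9:53760757-53760852 and Pln at chr10:53219960-53220118, with the start and stop codons in capitals.
Sln: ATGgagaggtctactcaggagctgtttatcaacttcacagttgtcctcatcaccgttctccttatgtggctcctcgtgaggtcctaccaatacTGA
Pln: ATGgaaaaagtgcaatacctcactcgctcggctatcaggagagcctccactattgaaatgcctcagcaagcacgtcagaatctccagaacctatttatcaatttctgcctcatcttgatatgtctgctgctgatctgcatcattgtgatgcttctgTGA

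Sln rose more than any of the other 9 genes. It stood at 1.66, 1.27, 2.39, 1.92 and 1.30 CPM in vehicle sham mice 1 to 5, and at 0.998, 2.44, 1.61, 1.99 and 1.43 CPM in D + Q sham, which are 19 to 41 counts per mouse. In vehicle MOV it reached 39.8, 62.6, 25.0, 42.4 and 19.1 CPM, and in D + Q MOV 22.2, 20.2, 26.8, 29.8 and 35.9 CPM, which are 453 to 1207 and 528 to 811 counts. No MOV mouse came near the sham range, and the vehicle MOV mice spread over a wider range than the D + Q MOV mice. The level was 22.4-fold higher in MOV with vehicle (log2 fold change 4.48, SE 0.378, adjusted p = 4.01e-06) and 16.5-fold higher with D + Q (4.05, SE 0.216, adjusted p = 5.3e-09). Relative to the summed counts of both pump genes, the log2 ratio of Sln rose by 5.35 with vehicle and 5.05 with D + Q, or 40.9-fold and 33.2-fold (exact permutation test, adjusted p over 16 tests = 0.0212 in each).

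Pln did not follow Sln. Its mean level lay between 1.05 and 1.55 CPM in the 4 groups, at 13 to 60.0 counts per mouse, and the sham and MOV ranges overlapped in both treatments. The log2 fold change was -0.20 with vehicle (95% interval -0.89 to 0.50, adjusted p = 0.623) and -0.27 with D + Q (95% interval -0.92 to 0.37, adjusted p = 0.445), so a change of the size seen for Sln lay outside the interval, while changes from -0.92 to 0.50 were not resolved at these counts. With total counts as the only scaling the sign turned, to 0.18 and 0.096. The counts of Pln are less certain than those of the other members, because the gene lies inside the oppositely transcribed Cep85l and shares 1355 exonic bases with the antisense transcript Gm47644, and whether the counting used strand is not given in the sources used here. Most Pln counts were not whole numbers, which the quantifier gives where reads are split between features. Antisense exons also overlap Cacna1s (917 bases with Gm37759) and, over fewer bases, Ryr1, Atp2a1, Atp2a2 and Casq1.

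**Figure D2:**
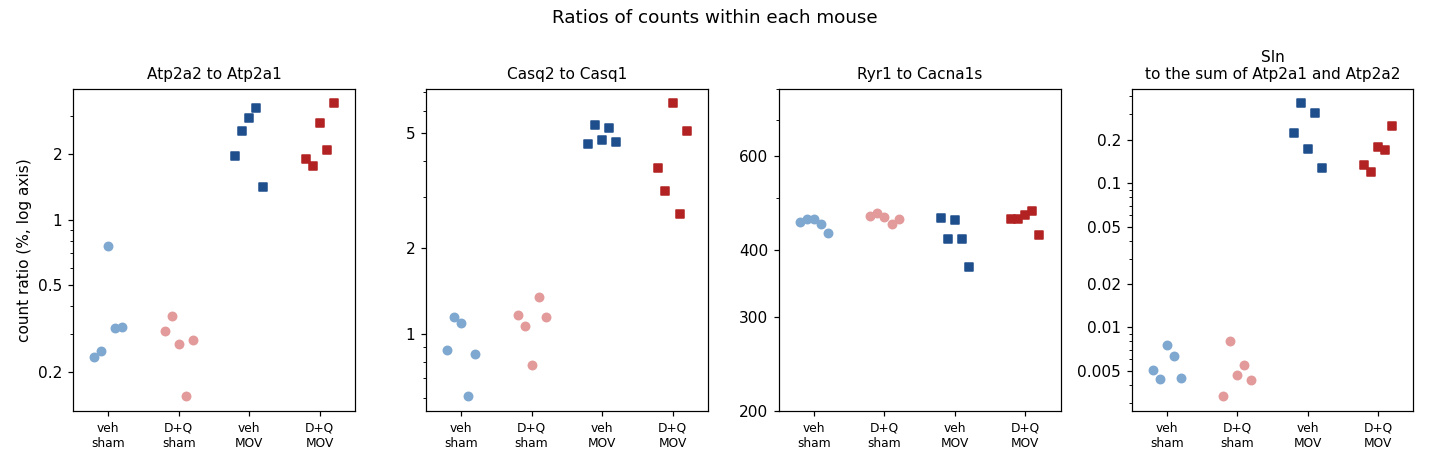
Ratios of counts within each mouse, in percent on log axes, for the pump pair, the calsequestrin pair, the release channel to its voltage sensor, and sarcolipin to the summed pumps. All MOV mice (squares) lie above all sham mice (circles) in the first, second and last panels, and the groups overlap in the Ryr1 to Cacna1s panel, whose values lie between 371% and 472%.

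Casq1 encodes calsequestrin 1, the main calcium-binding protein of the fast fibre store (chromosome 1, 172037459 to 172049328, minus strand). It measured 2948, 1980.4, 2436, 2625 and 2548 CPM in vehicle sham mice 1 to 5 and 1579, 1569, 1783, 1727 and 1647 CPM in vehicle MOV, with no overlap. In D + Q sham it measured 2355, 2527, 2561, 1874 and 2438 CPM, and in D + Q MOV 1774, 1856, 1568, 1880.3 and 1732 CPM, where D + Q sham mouse 4 fell within the MOV range. The log2 fold change was -0.58 (SE 0.0987, adjusted p = 0.000124) with vehicle and -0.37 (SE 0.0835, adjusted p = 0.000841) with D + Q. With total counts as the only scaling these became -0.20 (adjusted p = 0.0871) and -0.0059 (adjusted p = 0.948).

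Casq2 encodes calsequestrin 2, a form found in slow fibres and heart (chromosome 3, 101993234 to 102056307, plus strand). It was higher in every MOV mouse than in any sham mouse, going from 26.0, 22.7, 26.5, 15.9 and 21.7 CPM in vehicle sham mice 1 to 5 to 72.5, 84.0, 84.3, 90.1 and 76.8 CPM in vehicle MOV, and from 27.4, 27.0, 19.9, 25.2 and 28.0 CPM in D + Q sham to 67.4, 58.7, 99.9, 49.2 and 88.5 CPM in D + Q MOV. The groups did not overlap in either treatment, which 23.6% of genes showed toward higher levels with vehicle and 26.2% with D + Q. The log2 fold change was 1.87 (SE 0.119, adjusted p = 2.38e-08) with vehicle and 1.56 (SE 0.203, adjusted p = 9.41e-05) with D + Q. Casq2 counts went from 0.914% ± 0.214 to 4.91% ± 0.349 of Casq1 counts with vehicle and from 1.10% ± 0.207 to 4.21% ± 1.52 with D + Q, a rise in the log2 ratio of 2.46 and 1.88 (exact permutation test, adjusted p over 16 tests = 0.0212 in each). Vehicle sham mouse 3 was not apart here, at 1.20 times the median of its group mates for Casq2 against 2.83 times for Atp2a2.

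Pvalb encodes parvalbumin, the cytosolic calcium buffer that speeds relaxation of fast fibres (chromosome 15, 78075314 to 78091149, minus strand). It measured 8288, 5151, 7395, 8022 and 8517 CPM in vehicle sham mice 1 to 5 and 3382, 3408, 4077, 4255 and 3348 CPM in vehicle MOV. In D + Q sham it measured 7097, 8398, 8639.8, 7446 and 8232 CPM, and in D + Q MOV 4257, 4555, 3924, 4676 and 3792 CPM. No MOV mouse reached the sham range, and vehicle sham mouse 2 was the lowest of the sham mice. The level was 2.01-fold lower in MOV with vehicle (log2 fold change -1.0, SE 0.130, adjusted p = 1.02e-05) and 1.82-fold lower with D + Q (-0.86, SE 0.0810, adjusted p = 5.12e-08).

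**Figure D3:**
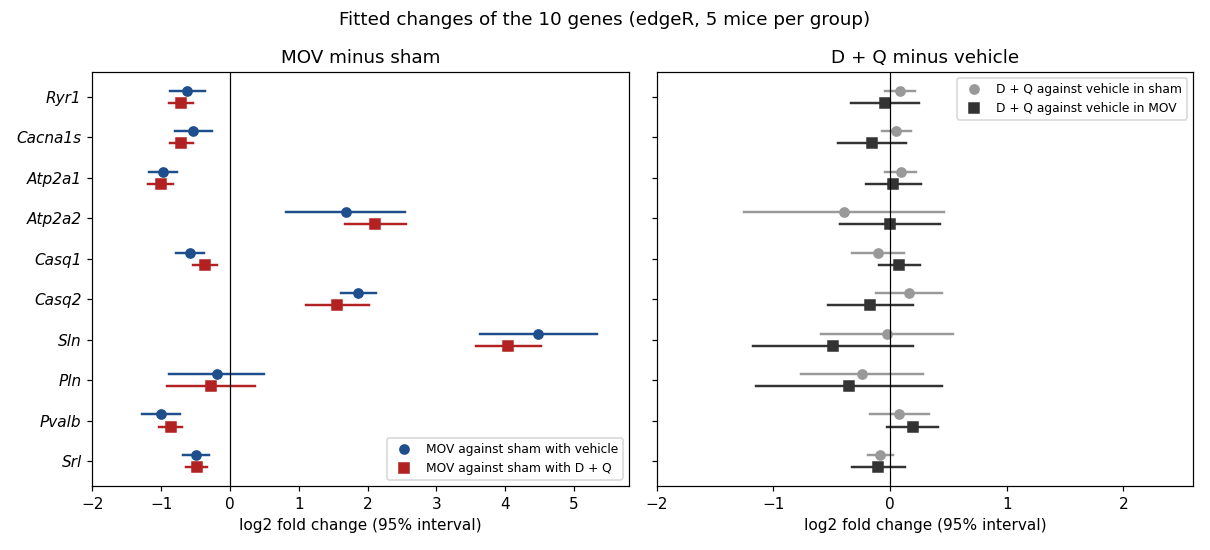
Fitted log2 fold changes of the 10 genes with 95% intervals, for MOV minus sham (left) and D + Q minus vehicle (right), 5 mice per group. On the left the intervals of 9 genes lie clear of 0 in both treatments, from -1.0 for Pvalb and Atp2a1 to 4.48 for Sln, and on the right every interval spans 0.

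Promoters of Casq2 and Pvalb are shown as a pair because these genes moved in opposite directions and each holds a motif of a muscle transcription factor among those searched. The motifs, counted on both strands in the 250 bases before the start of the canonical transcript, were the E-box CAGCTG bound by myogenic factors, CATTCC bound by TEAD factors, GGAAA bound by NFAT factors, TATAAA (the TATA box), the MEF2 site and the CArG box. TATAAA can lie inside a MEF2 site or a CArG box. CAGCTG was found in 11.8% of 15808 promoters of genes in the count table and in Casq2 alone among the 10 genes. The MEF2 site was found in 2.18% and in Pvalb and Casq1, CATTCC in 12.0% and in Atp2a1, and the CArG box in 1.27% and in none of the 10. TATAAA, counted anywhere in the window, was found in 8.34% and in Sln and Pln, in both toward the end of the window far from the start. GGAAA was found in 57.0% and in 6 of the 10 (Cacna1s, Atp2a2, Casq2, Sln, Pln and Srl). Both sequences run 5′ to 3′ on the gene's strand in GRCm39, chr3:101992984-101993233 for Casq2 (plus strand) and chr15:78090603-78090852 for Pvalb (minus strand), with the motif in capitals. In Casq2 the E-box stands 63 to 58 bases before the start, and in Pvalb the MEF2 site stands 178 to 169 bases before it.
Casq2: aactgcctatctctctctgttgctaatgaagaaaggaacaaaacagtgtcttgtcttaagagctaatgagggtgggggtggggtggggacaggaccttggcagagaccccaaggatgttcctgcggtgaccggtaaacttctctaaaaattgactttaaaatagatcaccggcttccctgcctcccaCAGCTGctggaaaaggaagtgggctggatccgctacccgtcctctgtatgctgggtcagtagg
Pvalb: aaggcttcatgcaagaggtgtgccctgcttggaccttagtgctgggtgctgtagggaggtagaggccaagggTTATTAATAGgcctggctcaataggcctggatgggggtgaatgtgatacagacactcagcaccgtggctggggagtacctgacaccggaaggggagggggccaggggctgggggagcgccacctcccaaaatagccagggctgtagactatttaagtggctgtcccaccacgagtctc

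Levels can be set side by side between genes only per length, here as mean CPM per kilobase of the canonical transcript. In vehicle sham the order was Atp2a1 (7339), Pvalb (2379), Casq1 (1159), Ryr1 (406), Cacna1s (219), Srl (208), Atp2a2 (26.0), Casq2 (4.08), Sln (1.29) and Pln (0.377). Cacna1s and Srl did not differ beyond their spread there, at 203 to 245 and 199.8 to 228, and the other neighbours did not overlap. In vehicle MOV the upper part of the order was the same, from Atp2a1 at 3705 to Ryr1 at 262, and Cacna1s (151) and Srl (146) again overlapped. The lower part differed, since Atp2a2 stood at 82.7, Sln at 28.7 and Casq2 at 14.7. Sln at 14.5 to 47.5 overlapped Casq2 at 13.1 to 16.3 and, narrowly, Atp2a2 at 47.0 to 98.4. Sln thus went from below Casq2 in every vehicle sham mouse to above Casq2 within every MOV mouse of both treatments, although the ranges of the groups overlapped, and in D + Q MOV the pair stood at 20.5 and 13.2. Pln was lowest in all 4 groups.

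None of the 10 genes was called for D + Q. In sham mice 0 of 10 were called beside 0.215% of 13926 genes, in MOV mice 0 of 10 beside 0% of 15238 genes, and for the interaction, which asks whether the response to MOV differed between D + Q and vehicle, 0 of 10 beside 0.0127% of 15700 genes (edgeR). None of the 10 reached an unadjusted p under 0.05 in any of these, where 10.2%, 8.79% and 5.71% of all genes did. DESeq2 called 0 of the 10 in each, and over all genes it called 125 in sham and 8 in MOV. The closest was Pvalb in MOV mice, at 4241 ± 384 CPM after D + Q against 3694 ± 436 CPM after vehicle. Its log2 fold change was 0.19 (95% interval -0.025 to 0.41, edgeR adjusted p = 0.588).

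The intervals say how large a D + Q effect these mice leave possible. In sham mice they ran from -0.046 to 0.21 for Ryr1, -0.074 to 0.18 for Cacna1s, -0.044 to 0.22 for Atp2a1 and -0.19 to 0.027 for Srl. For these genes they were wider in MOV mice, from -0.33 to 0.24 for Ryr1, -0.45 to 0.13 for Cacna1s, -0.21 to 0.26 for Atp2a1 and -0.33 to 0.12 for Srl. Pvalb and Casq1, also abundant, went the other way. Their intervals were -0.18 to 0.33 and -0.33 to 0.12 in sham mice, and -0.025 to 0.41 and -0.10 to 0.26 in MOV mice. Sln in MOV mice had a mean of 27.0 ± 6.26 CPM after D + Q, against 37.8 ± 17.0 CPM after vehicle, a log2 fold change of -0.49 whose interval ran from -1.18 to 0.19 (adjusted p = 0.648). Without vehicle MOV mouse 2, which had the highest Sln of its group, it was -0.24. Atp2a2 in sham mice had a log2 fold change of -0.40 (interval -1.26 to 0.46), which became 0.055 without vehicle sham mouse 3. The interaction was widest for Sln, at -0.47 (interval -1.52 to 0.58, adjusted p = 0.948), so an interaction as low as -1.52 was not resolved, and it was -0.23 without vehicle MOV mouse 2. None of the 4 count ratios differed between D + Q and vehicle in sham or in MOV (exact permutation test, adjusted p over 16 tests = 0.163 or more).

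Of the fibre type markers, 0 of 11 fast markers were higher and 8 were lower in MOV in both treatments (3 higher and 8 lower in each with total counts only). Of the 10 slow markers, 6 were higher and 1 lower with vehicle, or 9 and 0 without vehicle sham mouse 3, and 9 were higher and 0 lower with D + Q. The summed slow level ran from 328 to 990 CPM in vehicle sham and 308.8 to 428 CPM in D + Q sham, and from 708 to 1609 CPM in vehicle MOV and 941 to 1528 CPM in D + Q MOV. Within groups the match of Atp2a2 with this sum was partial. Vehicle MOV mouse 5 had the lowest Atp2a2 (209 CPM) and the lowest slow sum (708 CPM) of its group, and D + Q MOV mouse 5 had the highest of both in its group (477 and 1528 CPM). In contrast, D + Q MOV mouse 4 had the lowest slow sum of its group (941 CPM) with a median Atp2a2 level (359.9 CPM), and D + Q sham mouse 2 had the highest Atp2a2 (108 CPM) with a slow sum of 319.6 CPM, below the median of its group. Markers of developing or regenerating fibres were higher for 9 of 10 in both treatments, with sums of 50.1 to 87.7 CPM in sham and 432 to 1045 CPM in MOV. Sln was high in the same groups, although within vehicle MOV it was highest in mouse 2, whose developing fibre sum of 513.5 CPM was the median of its group. The part of fibre type and of fibre regeneration in these results was not tested.

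**Figure D4:**
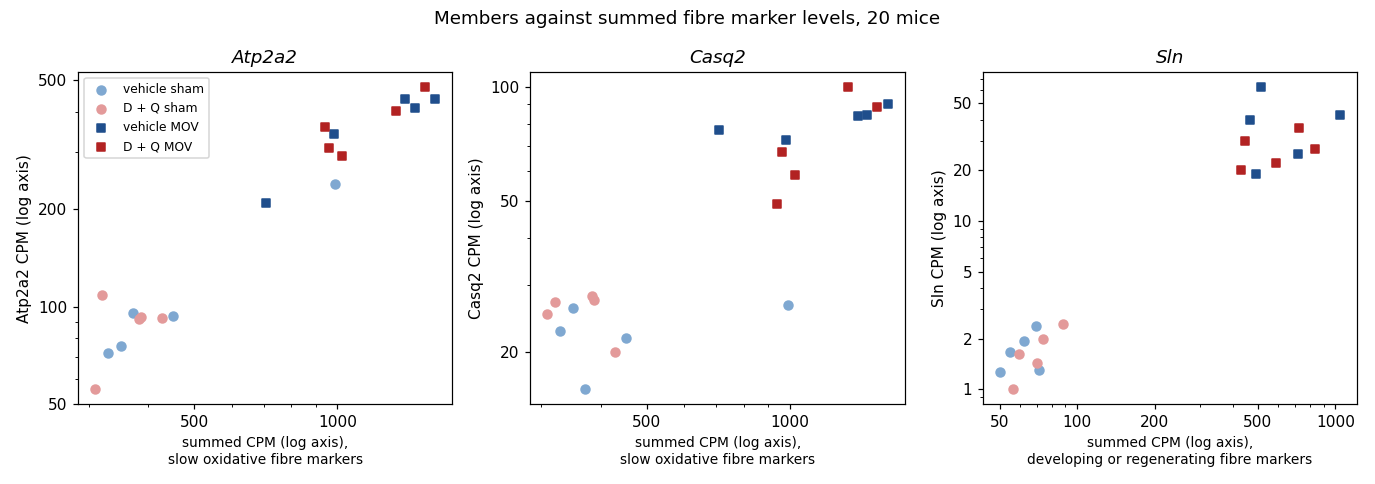
Levels of Atp2a2 and Casq2 against the summed slow fibre markers, and of Sln against the summed developing fibre markers, in each of the 20 mice (CPM, log axes). The vehicle sham mouse with a slow sum of 990 CPM lies beside the MOV mice for Atp2a2 (239.8 CPM) and among the sham mice for Casq2 (26.5 CPM).

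Markers of cells other than muscle fibres were mostly higher in MOV. Fibroblast markers were higher for 8 of 8 in both treatments, with sums of 457 to 687 CPM in vehicle sham, 569 to 1260 CPM in D + Q sham, 6917 to 13555 CPM in vehicle MOV and 11862 to 17084 CPM in D + Q MOV. Macrophage markers were higher for 9 of 10 with vehicle and 10 of 10 with D + Q, with sums of 62.9 to 172 CPM in sham and 311 to 925 CPM in MOV. Endothelial markers were higher for 6 of 8 in both, and smooth muscle and pericyte markers, whose cells also use SERCA2 and phospholamban, were higher for 6 of 10 and lower for 1 of 10 in both, with sums of 376 to 499.6 CPM in sham and 464 to 594 CPM in MOV. Of the 7 cardiac markers 4 were tested and 3 were higher in both treatments, with sums of 6.50 to 16.5 CPM in sham and 70.0 to 196 CPM in MOV. With vehicle that rise was mostly Myl4 (median 6.01 CPM in sham, 77.8 CPM in MOV) and Tnnt2 (1.46 and 30.1 CPM). Myh6 had medians of 2.00 and 2.13 CPM. Whether the rise of this list came from cells other than fibres was not tested. Nppb was at 0 in every sham mouse and at 13 counts or fewer in MOV, and Myl7 was not analysed here. Of the 13 skeletal fibre markers, 2 were higher and 7 lower with vehicle, and 1 was higher and 8 lower with D + Q. With total counts only these became 6 and 6 with vehicle and 5 and 7 with D + Q. The 6 lower members fell along with the skeletal fibre sum, which was 174254 to 193877 CPM in sham and 99052 to 144228 CPM in MOV. With vehicle most of that fall was in Myh4, a gene also in the fast fibre list, at a mean of 58568 CPM in sham and 19724 CPM in MOV. Acta1, Mb, Mylpf and Myh1 were not called with vehicle, and Des and Myh2 were higher. The sum is therefore not a plain measure of fibre content. The part of the cell types named here in the falls of the members was not tested.

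Mice within MOV differed in the same genes. Vehicle MOV mouse 4 had the lowest Ryr1 (2944 CPM), Cacna1s (702 CPM), Srl (1141 CPM) and Atp2a1 (13455 CPM) of its group, and also the lowest skeletal fibre sum (101645 CPM) and the highest sums for developing fibre (1045 CPM) and macrophage (925 CPM). The same mouse had the highest Casq2 (90.1 CPM) and Pvalb (4255 CPM) of its group. D + Q MOV mouse 3 had the lowest Cacna1s (742 CPM), Casq1 (1568 CPM) and Srl (1133 CPM), the highest Casq2 (99.9 CPM) and the highest developing fibre sum (834 CPM) of its group.

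Over all 20 mice, the genes whose log2 level was most like that of Atp2a2 were slow fibre thin filament genes, Tnnt1 (Pearson r = 0.986), Tpm3 (0.982) and Tnni1 (0.981), and the likeness remained high after each group's mean was taken out (0.925, 0.898 and 0.888). Vehicle sham mouse 3 stood at 2.83 times the median of its group mates for Atp2a2. For Tnnt1, Tpm3 and Tnni1 it stood at 3.84, 2.82 and 5.94 times. How far the within-group values rest on this mouse was not tested. For Sln the closest were Mgp (0.978), Ncam1 (0.977) and Ablim1 (0.976), where the values within groups were lower, at 0.649, 0.473 and 0.539. For Pvalb they were Styx (0.982), Xpr1 (0.980) and Cpeb1 (0.980), and for Ryr1 Sptb (0.990), Man2a2 (0.989) and Lrba (0.984), with within-group values of 0.820 or more for Pvalb and 0.929 or more for Ryr1. These values describe 20 libraries that share the difference between MOV and sham.

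Beyond the 10 genes, 80 others of the pathway were followed in 6 lists, of which 76 were tested in the MOV comparisons. Of all genes tested, 30.7% were higher and 29.8% lower with vehicle, and 34.4% and 30.9% with D + Q. Of the 76, 22 were higher and 37 lower with vehicle, with a median log2 fold change of -0.16. With D + Q 21 were higher and 42 lower, with a median of -0.22. With total counts as the only scaling the counts became 35 higher and 23 lower with vehicle and 37 and 24 with D + Q, and the medians 0.21 and 0.14, beside medians of all genes of 0.36 and 0.39 under that scaling. The direction of the combined list against 0 therefore depends on the scaling.

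Among the partners of Ryr1 and Cacna1s at the triad, 14 of 23 genes were lower and 2 higher with vehicle, and 17 lower and 2 higher with D + Q (9 lower and 7 higher, and 9 lower and 8 higher, with total counts only). Under TMM, 29.8% of all genes tested were lower and 30.7% higher with vehicle, and 30.9% and 34.4% with D + Q. Jph1 and Jph2, the junctophilins that hold the tubule against the reticulum, had log2 fold changes of -0.98 (SE 0.0833) and -0.84 (SE 0.0790) with vehicle. Stac3, an adaptor of the voltage sensor, was at -0.63 (SE 0.0667), and Trdn, the triadin that ties calsequestrin to the channel, at -0.68 (SE 0.111). The 2 higher ones were Sri (sorcin, 1.33 with vehicle and 1.32 with D + Q), a calcium-binding regulator of ryanodine receptors, and Cav3 (caveolin 3, 0.41 and 0.31). The triad genes in this paragraph were picked with their values in view.

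Over all 6 lists the highest log2 fold changes with vehicle included those of Chrng (4.45), the fetal acetylcholine receptor subunit, Nfatc4 (2.74), a calcineurin-dependent transcription factor, and Mcub (2.66), a subunit that damps the mitochondrial calcium uniporter. With D + Q they included Chrng (3.95), Nfatc4 (2.69) and Cacna1d (2.69), an L-type channel that is not the voltage sensor of adult skeletal muscle. Chrng and Cacna1d were near the detection limit in sham, at a mean of 0.205 and 0.418 CPM with vehicle and 0.263 and 0.269 CPM with D + Q. Mcub was also low in vehicle sham, at 0.638 CPM. The lowest with vehicle were Ryr3 (-1.90), a second ryanodine receptor, Itpr1 (-1.35), an inositol trisphosphate receptor, Mrln (-1.30), the micropeptide myoregulin that inhibits SERCA, and Clcn1 (-1.23), the chloride channel that steadies the membrane. With D + Q they were Ryr3 (-2.03), Mrln (-1.39), Clcn1 (-1.23) and Camk2a (-1.10), a subunit of the calcium-calmodulin kinase.

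Among the peptides that act on SERCA, Sln and Mrln thus changed in opposite directions. Mrln went from 34.3 ± 7.61 to 13.8 ± 2.84 CPM with vehicle (adjusted p = 6.68e-05) and from 39.6 ± 3.94 to 14.6 ± 1.95 CPM with D + Q (adjusted p = 7.7e-10), with no overlap in either. It stayed lower with total counts as the only scaling, at -0.91 and -1.03.

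The remaining lists held calls in both directions, as did all genes tested (30.7% higher and 29.8% lower with vehicle, 34.4% and 30.9% with D + Q). With vehicle, other release and entry channels had 6 higher and 4 lower of 13 tested, calcium extrusion and mitochondrial uptake 7 and 5 of 14, sarcolemmal excitability 4 and 6 of 12, and calcineurin and CaMKII signalling 3 and 7 of 13. With D + Q these were 5 and 4, 6 and 6, 4 and 7, and 4 and 7. With total counts only, in the same order, they became 8 and 3, 8 and 3, 6 and 3, and 6 and 4 with vehicle, and 9 and 3, 7 and 4, 6 and 4, and 7 and 3 with D + Q, so the leading direction of the last 2 lists turned. The calls of all genes moved the same way, from 50.8% higher to 84.1% with vehicle and from 52.6% to 83.5% with D + Q. D + Q against vehicle called 0 of 73 pathway genes in sham, 0 of 77 in MOV and 0 of 77 for the interaction (edgeR). Of all genes tested, 0.215%, 0% and 0.0127% were called. An unadjusted p under 0.05 was reached by 7, 11 and 4 of them, beside 10.2%, 8.79% and 5.71% of all genes tested. DESeq2 called 1, 0 and 0 of the pathway genes, and over all genes it called 125 in sham and 8 in MOV.

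**Figure D5:**
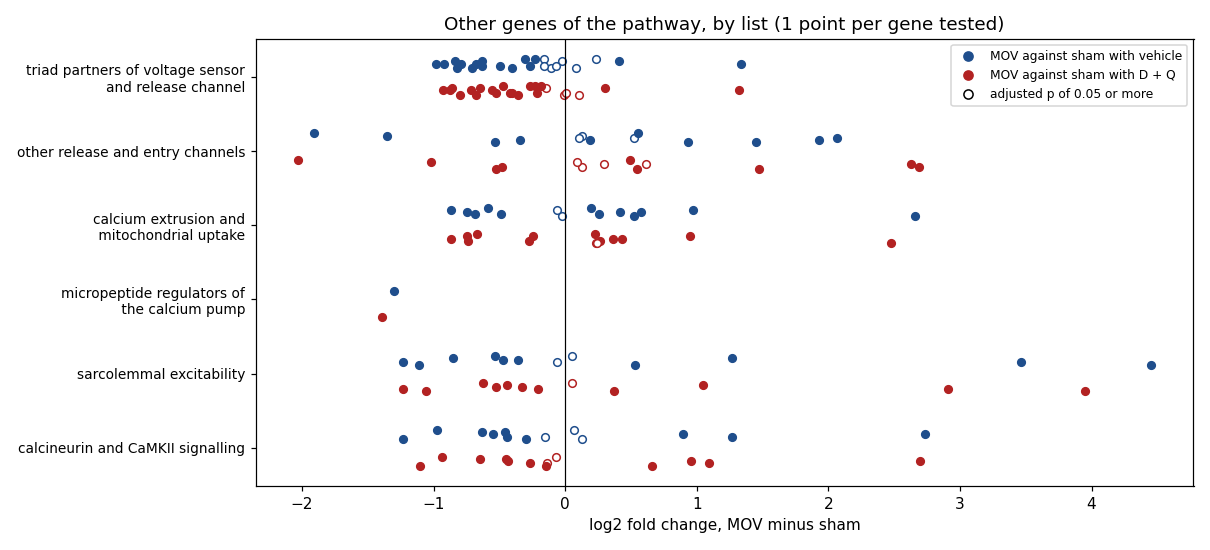
Log2 fold change, MOV minus sham, of each tested gene of the 6 pathway lists, in blue for vehicle and red for D + Q, with open circles where the adjusted p was 0.05 or more. With TMM scaling, as plotted, triad partners lie mostly left of 0, whereas with total counts only 7 were higher and 9 lower with vehicle, and Chrng lies farthest to the right, at 4.45 with vehicle.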

How the data were processed

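RNA of whole plantaris was sequenced in 20 mice (n = 5 per group). The authors aligned reads with STAR (2.7.8a) to GRCm39 in Partek Flow and deposited estimated counts from its expectation-maximization quantifier, unnormalized, for 22660 rows, each summing to at least 10, and 29.8% of values were not whole. Here the counts were rounded, and genes that reached 10 counts in 5 or more mice of a fit were tested with edgeR (4.0.16) under TMM scaling, robust quasi-likelihood and Benjamini-Hochberg adjustment, with the 2 groups of a comparison in each fit and all 20 mice for the interaction. The SE is the fold change over the root of F. Levels are CPM scaled over the 20 mice, and likeness used log2(CPM + 0.5). Each library was treated as 1 mouse, since the variance between libraries of a group was 6.53 times the counting variance or more. Scripts were tested on simulated data. Count ratios were compared by two-sided exact permutation tests. DESeq2 (1.42.0), other scalings, filters, fits and omitted mice were alternatives. Positions and sequences came from GRCm39 with its GENCODE annotation. The members and lists were chosen with earlier results of these data known. Pathway genes named were the 4 highest and 4 lowest called per comparison (1 gene is not reported here), and the 3 genes most like Sln, Pvalb, Atp2a2 and Ryr1, while the triad genes were named after their values were seen. Intervals cover the spread between mice at the depth sequenced.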

Additional observations from a re-analysis of the deposited data

Results flagged for a closer look

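In 3 of the 56 sets of 5 mice examined (10 genes and 4 ratios in 4 groups), 1 mouse lay far from the other 4 of its group, and chance alone sets 1 mouse apart in about 1 in 20 such sets. Atp2a2 was 239.8 CPM in vehicle sham mouse 3, against 72.1 to 95.7 CPM in the other vehicle sham mice. The log2 ratio of Atp2a2 to Atp2a1 counts was -7.04 in the same mouse, against -8.74 to -8.27 in the others. The slow myosin gene Myh7 was 358 CPM in this mouse and at most 80.3 CPM in the others, and all 10 slow markers were highest in it, while 0 of the 11 fast markers were. Srl was 2200.2 CPM in vehicle sham mouse 1, against 1930 to 1981 CPM in the others.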

How the results depend on the processing

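The calls of the 10 genes held under most settings. Of 940 alternative values of single genes, 904 kept their direction and side of the threshold, 5 lost the call and 31 changed sign, none of which was called. These 940 include the D + Q comparisons, the interaction and Pln, where there was no call to lose. The figure of 904 therefore does not measure how stable the calls were. The 5 losses all came with total counts as the only scaling: Cacna1s (-0.16, adjusted p = 0.15), Casq1 (-0.20) and Srl (-0.12) with vehicle, and Casq1 (-0.0059) and Srl (-0.12) with D + Q. Leaving out any mouse kept 9, 9, 0, 0 and 0 members called in the 5 comparisons. Over all genes, MOV against sham then called 7929 to 8504 with vehicle and 8850 to 9450 with D + Q. With every mouse these were 8831 and 9743, so most calls of all genes also remained. The interaction called 2 to 3 genes.

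Sign changes with total counts only were Pln in MOV against sham (0.18 with vehicle, 0.096 with D + Q), Sln for D + Q in sham (0.015), Ryr1 (0.019) and Atp2a2 (0.050) for D + Q in MOV, and Srl in the interaction (0.0028). Atp2a2 for D + Q in MOV also turned with at least 10 counts in every mouse (0.0013), with the replicate block (0.015) and with all 20 mice in one fit (0.0046). Leaving out 1 mouse turned these uncalled values within ranges of -0.52 to 0.055 (Atp2a2), -0.18 to 0.12 (Sln) and -0.022 to 0.13 (Pvalb) for D + Q in sham, -0.14 to 0.043 (Ryr1), -0.020 to 0.078 (Atp2a1) and -0.15 to 0.070 (Atp2a2) for D + Q in MOV, and -0.060 to 0.52 (Atp2a2), -0.29 to 0.22 (Pln) and -0.089 to 0.029 (Srl) in the interaction. Of the ratios, Sln to the summed pumps for D + Q in sham ran from -0.31 to 0.013, Atp2a2 to Atp2a1 for D + Q in MOV from -0.19 to 0.11, and Ryr1 to Cacna1s in MOV against sham with D + Q from -0.026 to 0.011.

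Over all genes, D + Q in sham called 30, against 125 with DESeq2, 49 with total counts only, 67 with no filter, 19 with the replicate block, 19 with all 20 mice in one fit, and 2 to 74 with 1 mouse left out (2 without D + Q sham mouse 3). D + Q in MOV called 0, against 8 with DESeq2, 2 with the replicate block and 0 to 2 with 1 mouse left out. The interaction called 2, and 1 with the replicate block. The cause of these moves was not tested. Same-numbered mice did not pair: correlations of their deviations ran from -0.215 to 0.232, and 3, 0, 2 and 2 of 10 mice matched best with their own number. With the replicate block the 6 called ratio changes kept their values (2.77, 3.13, 2.46, 1.88, 5.35 and 5.05), but 5 pairs allow no p below 0.0625 (adjusted 0.167), which says nothing about their stability. The depth limits Pln (13 to 60.0 counts) and Sln in sham (19 to 41 counts).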
